A study of Drosophila melanogaster with 6 samples.

Results

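ROW, WOC and the HP1 family are chromatin proteins whose transcripts were followed in Drosophila S2 cells after RNA interference (RNAi) against row. The genes were row, woc, HP1c, the suppressor of variegation gene that encodes HP1a, HP1b, HP6, HP1D3csd, HP1e and rhi. A probe set was taken when its annotation gave 1 of these genes and no other. All 9 genes were measured, of 11982 on the chip that have a probe set with their symbol alone, and they took 11 of the 18769 tested probe sets. There were 3 probe sets for row and 1 for each of the other genes. The ROW RNAi group was 3 arrays of cells kept for 96 h with double-stranded RNA that targets ROW. The control group was 3 arrays of S2 cells described as wild type. S2 cells are a hemocyte-like culture line that was derived from embryos. The same treatment text, on double-stranded RNA against ROW, stands with every sample, the controls included, so it is unclear whether the controls were given any double-stranded RNA. If they were not, loss of ROW and exposure to double-stranded RNA cannot be told apart. Nothing says whether the arrays of a group stand for separate cultures. The p-values therefore cover only the spread among these arrays, which may be technical.

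HP1 proteins bind chromatin through a chromodomain, which recognises methylated lysine 9 of histone H3, and form dimers and recruit partners through a chromo shadow domain. HP1a is the founding member and a structural protein of heterochromatin. HP1c lies mostly in euchromatin, where it associates at active genes with the zinc finger proteins WOC and ROW. The name ROW stands for relative of woc. The arrays measure RNA, so they do not show the amounts of these proteins.

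Each array gave 1 RMA value for a probe set, on the log2 scale, where a difference of 1 is a 2-fold difference. A background level of 3.39 was set from control probe sets that match no fly transcript. Probe sets differ in how strongly they bind, so no level was compared between genes. Where probe sets of row are set beside each other, it is their changes between the groups that are compared. The array medians ran between 4.88 and 5.04. On the first principal component, which held 66.9% of the variance, ROW RNAi replicates 1, 2 and 3 scored 42.7, −19.5 and 20.8, against −3.69, −26.5 and −13.7 in controls. ROW RNAi replicates 1 and 3 thus stood apart from the other arrays, while replicate 2 lay among the controls. The control probe sets that set the background had medians of 2.34, 2.91 and 2.54 on ROW RNAi replicates 1, 2 and 3. On control replicates 1, 2 and 3 these medians were 2.64, 2.84 and 2.82. The arrays with the highest scores thus had the lowest control medians. What the component reflects was not tested. All 12 measured hemocyte markers were above background on every array, with a mean level of 10.81 to 10.86 on ROW RNAi arrays and 10.83 to 10.86 on control arrays. Single markers differed all the same. Of the 12, 2 passed the test (16.7%, against 1.16% of all tested probe sets), He (log2 fold change −0.69) and Sr-CI (0.62), named after their values were seen. The groups did not overlap in 9 of them (75%, against 21.4%), and 7 had an unadjusted p under 0.05 (58.3%, against 13.8%). Markers and list genes were read on their brightest probe set. Over all 11982 genes read in that way, 1.56% were called, 24.3% did not overlap and 15.1% had an unadjusted p under 0.05. The marker and list shares below are to be read against these shares too.

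The row transcript was lower on every ROW RNAi array than on any control array, on each of its 3 probe sets. Probe set 1628825_at read 6.34, 6.61 and 6.51 on the ROW RNAi arrays, against 9.16, 9.03 and 9.23 on the control arrays (log2 levels). Probe set 1623401_a_at, whose suffix marks probes shared by alternative transcripts of the gene, read 6.66, 6.999 and 6.69 on ROW RNAi arrays and 9.40, 9.35 and 9.44 on control arrays. The brightest, 1638839_at, read 9.04, 8.91 and 8.91 on ROW RNAi arrays and 10.44, 10.60 and 10.54 on control arrays. The lowest ROW RNAi value on any of them was 6.34, against the background level of 3.39, so row signal was still detected in the depleted cells.

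**Figure D1:**
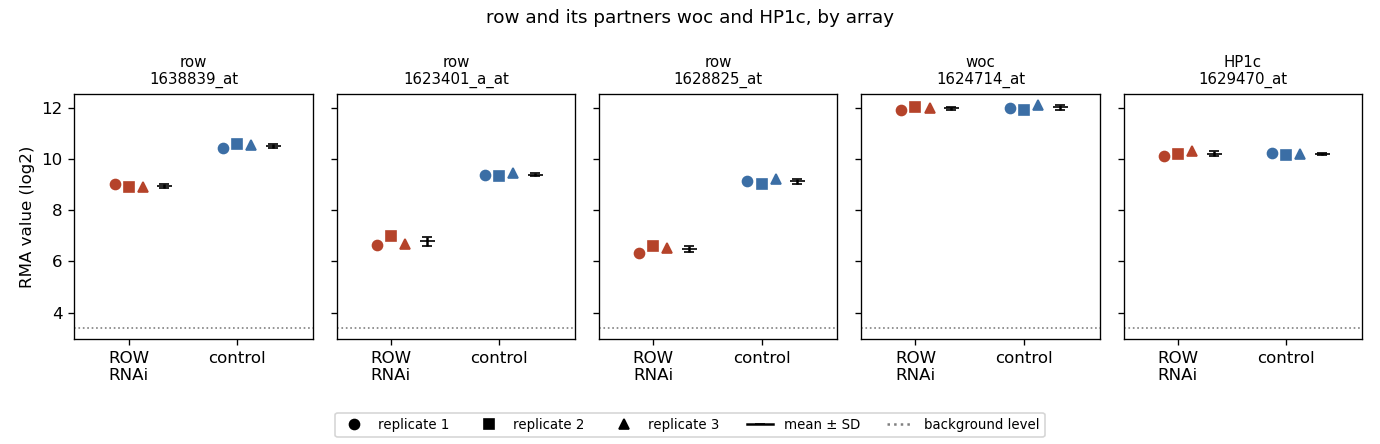
RMA values (log2, vertical axis) of the row, woc and HP1c probe sets on ROW RNAi arrays (red) and control arrays (blue); symbols are replicates, black bars the mean ± SD of 3 arrays, and the dotted line the background level of 3.39. The 3 row probe sets separate the groups without overlap, whereas the woc and HP1c values of both groups overlap.

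Probe set 1628825_at averaged 6.49 ± 0.13 in ROW RNAi and 9.14 ± 0.10 in control arrays (log2 mean ± SD, n = 3 each). Its log2 fold change was −2.66, with a 95% interval from −2.88 to −2.43 (SE 0.09, limma adjusted p = 0.0017), so 15.9% of the control level was left. It had the largest absolute log2 fold change of all 18769 probe sets. Probe set 1623401_a_at averaged 6.78 ± 0.19 in ROW RNAi and 9.40 ± 0.05 in control arrays and fell by 2.61 (SE 0.10, limma adjusted p = 0.0018), to 16.4% of the control level. Probe set 1638839_at averaged 8.95 ± 0.07 in ROW RNAi and 10.53 ± 0.08 in control arrays and fell by 1.58 (SE 0.07, limma adjusted p = 0.0023), to 33.5% of the control level. The row probe sets were thus 3 of 3 lower past the test, where 0.757% of all tested probe sets were called lower and 1.16% were called in either direction. The count behind this background was 218 probe sets, and it ran from 24 to 517 when any 1 of the 6 arrays was left out. The row calls held without each array, with log2 fold changes from −2.71 to −2.58 for 1628825_at, from −2.72 to −2.55 for 1623401_a_at and from −1.62 to −1.54 for 1638839_at. These ranges include the fits without ROW RNAi replicate 1, 2 or 3.

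The measured fall was smallest on the brightest row probe set. The level left on single ROW RNAi arrays, relative to the control mean, was between 14.4% and 17.2% on 1628825_at and between 15.0% and 19.0% on 1623401_a_at. On 1638839_at it was between 32.5% and 35.6%. These percentages did not overlap between the brightest probe set and the others. Within arrays, 1628825_at minus 1638839_at was −2.46 ± 0.20 in ROW RNAi and −1.38 ± 0.16 in control arrays, a difference of −1.08 between the log2 fold changes (SE 0.15, two-sided exact permutation p = 0.10, the smallest that 3 against 3 arrays allow). For 1623401_a_at against 1638839_at the difference was −1.03 (SE 0.15, exact permutation p = 0.10). For 1628825_at against 1623401_a_at it was −0.04 (SE 0.07, exact permutation p = 0.60). Neither the position of the probes in the transcript nor the stretch of row that the double-stranded RNA matched is given in the sources used here. On 1628825_at and 1623401_a_at the highest ROW RNAi value was that of replicate 2, and on 1638839_at that of replicate 1, so the probe sets did not rank the arrays alike.

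The transcripts of the ROW partners overlapped between the groups. WOC is a zinc finger protein with a role in capping telomeres and in ecdysone synthesis. On its probe set 1624714_at, woc read 11.93, 12.03 and 11.99 on ROW RNAi arrays, against 12.02, 11.93 and 12.11 on control arrays. The means were 11.98 ± 0.05 in ROW RNAi and 12.02 ± 0.09 in control arrays, and the log2 fold change was −0.04 (SE 0.07, limma adjusted p = 0.80). The 95% interval, from −0.20 to 0.12, covers levels between 87.0% and 109% of control.

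HP1c, on 1629470_at, read 10.14, 10.20 and 10.32 on ROW RNAi arrays and 10.23, 10.17 and 10.20 on control arrays. The means were 10.22 ± 0.09 in ROW RNAi and 10.20 ± 0.03 in control arrays. The log2 fold change stood at 0.02 (SE 0.06, limma adjusted p = 0.89). The 95% interval ran from −0.13 to 0.17, or from 91.3% to 113% of control. With the spread of these probe sets, a change had to reach 1.36-fold for woc and 1.34-fold for HP1c to pass the test. Smaller changes could not have been called, although the intervals of both genes leave out the falls seen on every row probe set. The signs of both small differences turned under some settings, that of woc without control replicate 3 (0.0060) and that of HP1c once the arrays were median-centred (−0.026) or ROW RNAi replicate 3 was left out (−0.029). Ubqn, a further protein of the HP1c complex, had no probe set with its symbol alone and is not analysed here.

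**Figure D2:**
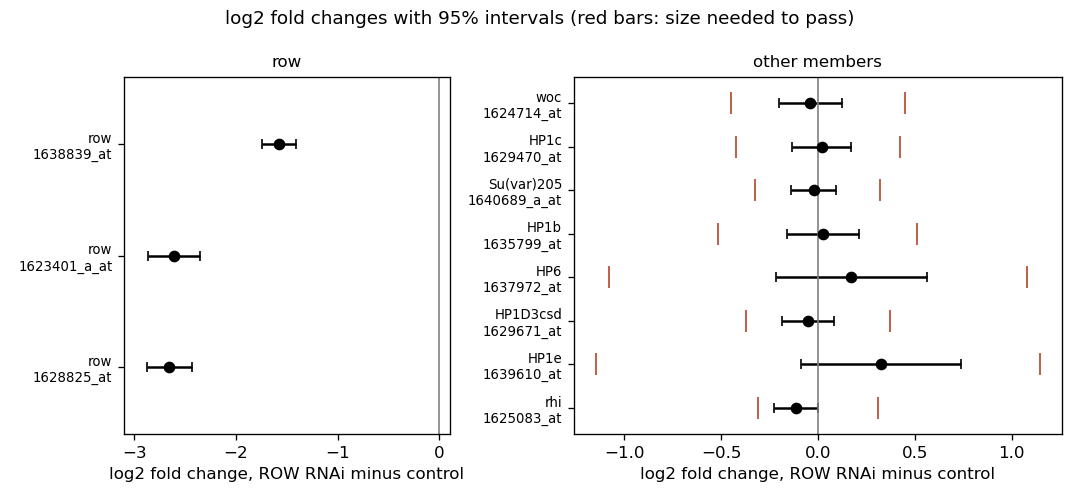
log2 fold changes of ROW RNAi minus control (horizontal axes) with 95% intervals from limma, for the row probe sets (left) and the other members (right); n = 3 arrays a group, and red bars mark the size a probe set needed to pass at its own spread. The row intervals lie between −2.88 and −1.41, and every other point lies inside its red bars.

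Of the 7 HP1 family genes, HP1c among them, none passed the test in limma, where 1.16% of all tested probe sets did. In the family 1 gene had an unadjusted p under 0.05 (rhi), against 13.8% of all tested probe sets. The median log2 fold change of the family was 0.02, against −0.03 over all tested probe sets, with members from −0.11 to 0.33. The HP1a gene read 13.10, 13.06 and 13.04 on ROW RNAi arrays, against 13.07, 13.06 and 13.13 on control arrays. Its 6 values spanned 0.09 log2 units, the smallest span among the members. The means were 13.07 ± 0.03 in ROW RNAi and 13.09 ± 0.04 in control arrays, a log2 fold change of −0.02 with a 95% interval from −0.14 to 0.09 (limma adjusted p = 0.85). In level that is between 90.9% and 107% of control.

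HP1b, a family member found in both heterochromatin and euchromatin, read 11.18, 11.31 and 11.21 on ROW RNAi arrays and 11.27, 11.08 and 11.27 on control arrays. Its log2 fold change was 0.03, with a 95% interval from −0.16 to 0.21 (SE 0.07, limma adjusted p = 0.89). The values of the groups overlapped. The sign turned with median centring (−0.020), without control replicate 2 (−0.036) and without ROW RNAi replicate 2 (−0.013).

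HP1D3csd, which is named for its chromo shadow domain, read 10.54, 10.44 and 10.51 on ROW RNAi arrays and 10.53, 10.60 and 10.50 on control arrays. It differed by −0.05 (SE 0.05, 95% interval −0.19 to 0.08, limma adjusted p = 0.69), and its groups overlapped. HP6, also called Umbrea, encodes a small protein with a chromo shadow domain that lies at centromeres. It was dim, at 5.52, 5.74 and 6.00 on ROW RNAi arrays and 5.77, 5.61 and 5.36 on control arrays, though above background on all 6. Its log2 fold change of 0.17 had an SE of 0.16 (limma adjusted p = 0.64), and a change had to reach 2.11-fold to pass, so HP6 was measured far less precisely than the brighter members.

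**Figure D3:**
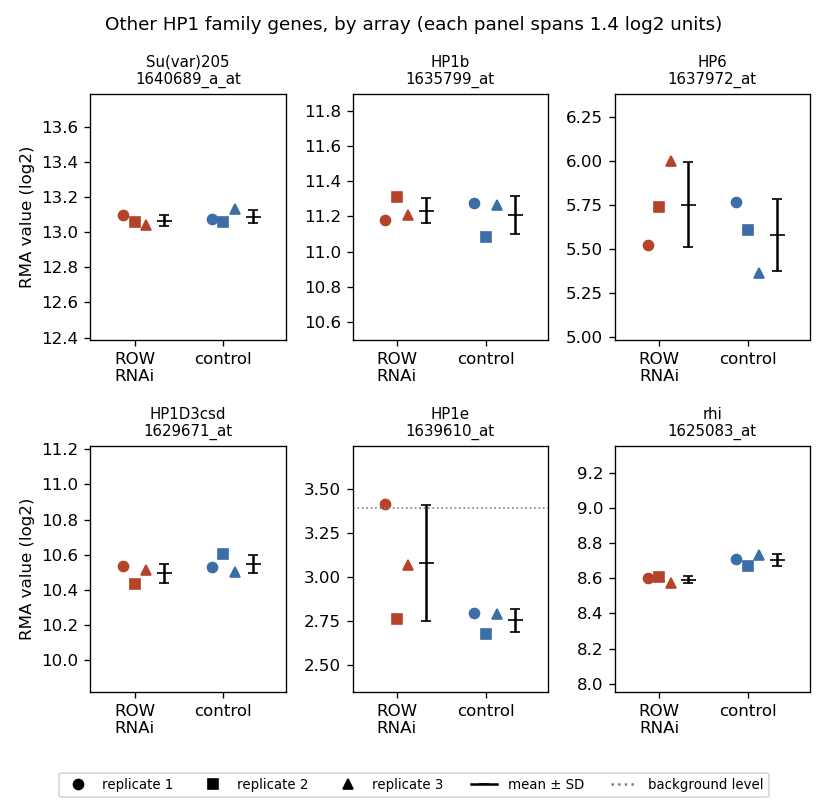
RMA values (log2, vertical axes, each panel over the same span) of the 6 HP1 family genes other than HP1c (HP1a under its gene symbol) on ROW RNAi arrays (red) and control arrays (blue); symbols are replicates, black bars the mean ± SD of 3 arrays, and the dotted line the background level of 3.39, which lies in the HP1e panel. The groups overlap in every panel but that of rhi, where their means lie −0.11 apart.

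The gene rhi encodes Rhino, an HP1 protein of the germline that marks the genomic clusters from which Piwi-interacting RNAs (piRNAs) are made. It read 8.60, 8.61 and 8.57 on ROW RNAi arrays, against 8.71, 8.67 and 8.74 on control arrays, and was above background on all 6. Every ROW RNAi value lay below every control value, as it did for 14.4% of all tested probe sets, and groups did not overlap in 21.4% in either direction. The difference was small, −0.11 on the log2 scale (SE 0.05, 95% interval −0.23 to −0.002), or 92.4% of the control level, and did not pass the test (unadjusted p = 0.047, limma adjusted p = 0.36). Its log2 fold change lay between −0.16 and −0.07 over the 12 alternatives and passed in none of them. Of 10 ovary and germline markers 8 were measured. Of these 8, 7 were above background on all arrays, and none passed the test (2 at an unadjusted p under 0.05). Among the 7, zpg read only 3.54 to 3.85, against the background level of 3.39. All 7 measured neuron markers were also above background on all arrays, and the background filter kept 14405 of the 18769 tested probe sets. Detection therefore does not set the germline list apart. The groups did not overlap in 6 of the 8 germline markers (75%, against 21.4%), with 4 lower and 2 higher in ROW RNAi. The lower ones were led by tej (−0.29) and aub (−0.26). The higher ones were otu (0.58, above background on 1 array) and AGO3 (0.09). These markers were named after their values were seen. The part of these differences in the rhi value was not tested. The mean level of the list ran from 7.21 to 7.33 on ROW RNAi arrays and from 7.26 to 7.31 on control arrays.

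HP1e, which is known from the male germline, was at or near background. It read 3.42, 2.76 and 3.07 on ROW RNAi arrays, against 2.79, 2.68 and 2.79 on control arrays. Only ROW RNAi replicate 1 exceeded the background level of 3.39, which pools all arrays. Set against the same percentile of its own array, ROW RNAi replicate 3 was also just above (3.07 against 3.03). No control array was above its own percentile. The log2 fold change was 0.33 (SE 0.17, 95% interval −0.09 to 0.74, limma adjusted p = 0.45), a value from a probe set below the pooled background level on 5 arrays. It lay between 0.16 and 0.49 over the alternatives and passed in none of them. The testis marker genes, 13 of 13 measured, had mean levels from 5.34 to 5.64 on ROW RNAi arrays and from 5.36 to 5.49 on control arrays. Levels were uneven, with ROW RNAi means of 10.30 for bam and 2.12 for Mst87F. Of the 13 genes, 7 were above background on all 6 arrays and 3 below it on all 6, and 0 passed the test. An unadjusted p under 0.05 was found for 5 (38%, against 13.8% of all tested probe sets). The groups did not overlap in 6 (46%, against 21.4%), with 3 lower and 3 higher in ROW RNAi. The part of these differences in the HP1e value was not tested.

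The probe sets most like row over the 6 arrays were sought among those above the median level of all probe sets. The highest correlations with 1638839_at were those of CG3961 (Pearson r = 0.999), CG31431 (0.999) and CG15209 (0.998). All 3 also fell in ROW RNAi arrays, with log2 fold changes of −1.18, −0.37 and −1.44 (limma adjusted p = 0.0040, 0.025 and 0.0018). Their values split the arrays as row does, so the correlation is not independent of their falls. Among the 3 genes most like woc were CG9578 (r = 0.986) and Larp4B (0.976), with log2 fold changes of −0.01 and −0.09. Most like HP1c were CG10466 (r = 0.995), CG34228 (0.986) and Pepck2 (0.985), with log2 fold changes of 0.04, 0.06 and 0.11. None of these last genes passed the test, and correlations over 6 arrays that are the highest among 7785 probe sets are a description only.

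Other genes of the pathways in which these proteins act moved little, with more below 0 than above. Of 55 measured genes on 6 lists that are not members, 1 rose and 0 fell past the test, where 0.405% of all tested probe sets rose and 0.757% fell. An unadjusted p under 0.05 was found for 9 of them (16.4%), against 13.8% of all tested probe sets and 15.1% of all genes on their brightest probe set. The counts at that p for single lists below are to be read against the same shares. The median log2 fold change of the 55 genes was −0.05, against −0.03 over all tested probe sets. Of the 55, 40 were below 0 (72.7%), against 60.2% of all genes read in the same way, on their brightest probe set. The pathway genes were above background on every array, whereas all genes include dim ones. These shares are therefore not matched for level. The gene that rose was cuff, which encodes Cutoff, a protein that acts with Rhino at piRNA clusters in the germline. It read 8.31, 8.43 and 8.29 on ROW RNAi arrays and 7.91, 7.95 and 7.85 on control arrays, 0.44 higher on the log2 scale (SE 0.06, limma adjusted p = 0.041). Leaving out control replicate 1, 2 or 3 ended the call (adjusted p = 0.19, 0.18 and 0.20), as did leaving out ROW RNAi replicate 1 or 3 (0.13 and 0.14) and median centring (0.24), while the log2 fold change stayed between 0.39 and 0.49.

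On the list of Rhino and piRNA cluster transcription 9 of 10 genes were measured, and the other 8 did not pass. Nxf3, which encodes an export factor for piRNA precursors, read 6.81, 6.27 and 6.67 on ROW RNAi arrays and 7.35, 6.60 and 7.02 on control arrays (log2 fold change −0.41, SE 0.23, limma adjusted p = 0.47). Its values overlapped between the groups and varied widely within each. The median of this list was −0.14, and 2 of its 9 genes had an unadjusted p under 0.05. The groups did not overlap for 4 of the 9 (44.4%), 2 lower and 2 higher, against 21.4% of all tested probe sets.

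Among HP1a partners and genes of histone H3 lysine 9 methylation, 16 of 20 were measured and none passed (3 at an unadjusted p under 0.05). Su(var)3-9, egg, G9a and Kdm4B had no probe set with their symbol alone, so nothing is said of these genes. The median was −0.05. Hmr, which encodes a hybrid incompatibility protein found with HP1a, had the largest difference. It read 8.13, 8.34 and 8.14 on ROW RNAi arrays, against 8.48, 8.56 and 8.56 on control arrays, without overlap (log2 fold change −0.33, SE 0.07, limma adjusted p = 0.15). Orc1, a subunit of the origin recognition complex, followed at −0.17 (SE 0.06, adjusted p = 0.32). Without ROW RNAi replicate 2, or with trend and robust variance, Hmr passed. The groups did not overlap for 6 genes of this list (37.5%), against 21.4% of all tested probe sets.

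Among telomere capping genes, 7 of 10 were measured and none passed (2 at an unadjusted p under 0.05), with a median of −0.05. The DNA repair gene rad50 differed by −0.23 (SE 0.04, limma adjusted p = 0.11) and its partner mre11 by −0.13 (SE 0.05, adjusted p = 0.32), without overlap of the groups in either. They were the 2 genes of this list without overlap (28.6%), against 21.4% of all tested probe sets. With trend and robust variance rad50 passed. All 9 genes of the NURF and FACT complexes and of Z4 and Chromator were measured, none passed and none had an unadjusted p under 0.05. Values of the groups overlapped for all 9 genes. Their log2 fold changes lay between −0.10 (E(bx), the large NURF subunit) and 0.03, with dre4, a FACT subunit, at −0.09.

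Of 8 other chromodomain genes none passed (1 at an unadjusted p under 0.05), with Chd3, which encodes a chromatin remodeller, at −0.20 (SE 0.06, limma adjusted p = 0.24) and msl-3, of the dosage compensation complex, at −0.13 (SE 0.07, adjusted p = 0.47). The groups did not overlap for 3 of the 8 (37.5%), all lower, against 21.4% of all tested probe sets. Genes of the small interfering RNA pathway, which carries out the depletion, did not pass either (6 of 7 measured, 1 at an unadjusted p under 0.05). The groups did not overlap for 1 of these 6 genes (16.7%), and AGO2 was the gene not measured. There loqs, which encodes a partner of Dicer, was 0.14 higher (SE 0.04, adjusted p = 0.26) and Dcr-2, which encodes the Dicer that cuts double-stranded RNA, differed by −0.10 (SE 0.09, adjusted p = 0.66).

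**Figure D4:**
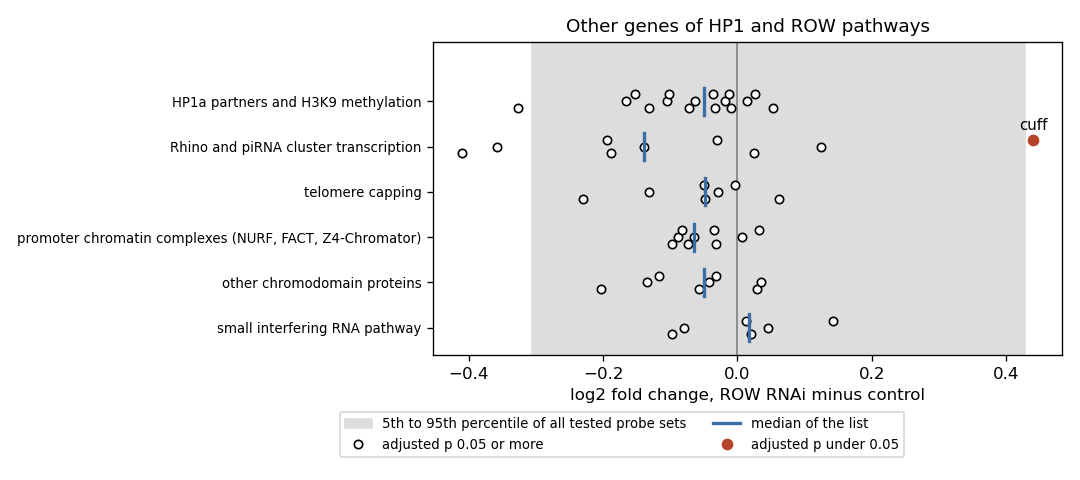
log2 fold changes of ROW RNAi minus control (horizontal axis) for the 55 measured pathway genes that are not members, by list; each circle is the brightest probe set of a gene, blue bars are list medians and the grey band runs from the 5th to the 95th percentile of all tested probe sets. cuff, at 0.44, is the gene past the threshold, and the list medians lie between −0.14 and 0.02.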

How the data were processed

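Total RNA of S2 cells was hybridised to 6 Affymetrix Drosophila Genome 2.0 arrays, 1 sample each. The authors deposited log2 values from RMA, per the submitters' processing notes, which name no version. RMA subtracts background, gives the arrays a common distribution (quantile normalization) and combines the probes of a set into 1 value. It hides a shift common to most transcripts and may compress fold changes. The number of arrays limits the precision.

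Of 18952 probe sets, the 183 Affymetrix controls were dropped, and all the other 18769 entered the tests however dim. Symbols came from the platform annotation and were updated by gene ID (13544 of 13647 probe sets with 1 symbol matched). A further 402 carried several symbols and 4720 none. The background level is the 95th percentile of 17 tag control probe sets. ROW RNAi was compared with control in limma 3.58.1 under R 4.3.3 (lmFit, then eBayes, two-sided). Benjamini-Hochberg adjustment covered every tested probe set, the threshold was 0.05, and SE is the moderated one. The size needed to pass is the SE times the moderated t at the largest p called. A list gene was read on its brightest probe set. Named were all members, list genes past the threshold (where fewer than 2 passed, those with the largest absolute log2 fold change) and up to 3 genes most like row, woc or HP1c. Members and lists were chosen with earlier results of these data known. The fit was tested on simulated data. Figures were drawn with matplotlib 3.10.9.

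The alternatives tried were median centring, cyclic loess, a background filter, trend and robust variance, array weights, replicate number as a block, each array left out in turn, and averaging a gene's probe sets.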

Additional observations from a re-analysis of the deposited data

Results flagged for a closer look

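Outside the comparison, the 18 hybridization control probe sets had a mean of 11.94 on ROW RNAi replicate 2 (log2), which was 0.48 higher than on any control array (at most 11.46). The lowest ROW RNAi array stood at 11.40. The median of the 17 tag control probe sets was 2.91 on ROW RNAi replicate 2, against at most 2.84 on a control array, and 2.34 on the lowest ROW RNAi array.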

How the results depend on the processing

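The row log2 fold changes kept their sign under every alternative run. They stayed past the threshold in all but the fit with a replicate block, where they were −1.58 (1638839_at, limma adjusted p = 0.056), −2.61 (1623401_a_at, 0.052) and −2.66 (1628825_at, 0.052). With that block 0 member probe sets passed, and 0 of all probe sets. The pairing by number is not stated in the labels, so no pairing was assumed, and the calls depend on this choice. The deviations of arrays that share a number had correlations of 0.48, 0.55 and −0.04. Whether arrays that share a number belong together was not tested. Averaging the row probe sets gave −2.28. The 8 other members passed under none of their 95 alternative values (lowest adjusted p = 0.093). Signs turned under median centring for HP1c (−0.026) and HP1b (−0.020). Without 1 array, woc ran from −0.084 to 0.0060, HP1c from −0.029 to 0.061 and HP1b from −0.036 to 0.060, with −0.013 for HP1b without ROW RNAi replicate 2. Of all probe sets, 218 passed, against 107 with median centring, 558 with trend and robust variance and 24 to 517 without 1 array. Of the pathway genes, 1 passed, against 0 with median centring or the block, 3 with trend and robust variance and 0 to 2 without 1 array. These pathway alternatives were chosen after seeing the data. The causes were not tested. Signal near background limits HP1e, and the spread between arrays HP6.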
